A study of Homo sapiens with 6 samples.

Results

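The genes described here are 7 receptor tyrosine kinases and 3 ligands through which a cell that depends on EGFR can be supplied with growth signals by another route: MET, MST1R, AXL, TYRO3, PDGFRB, DDR1 and DDR2, and GAS6, PDGFA and PDGFC. They were taken by symbol from a series table of 20356 genes, in which each of the 10 had 1 row. The study sequenced RNA of H1975, a human line from an EGFR-mutant adenocarcinoma of the lung, and of H1975 OR, its osimertinib-resistant derivative, with 3 libraries each, stated in the series design to be biological replicates. Both were grown in RPMI-1640 with fetal bovine serum. Parental cells received no drug per the labels, and resistant cells were kept in 1 µM osimertinib, a kinase inhibitor directed at mutant EGFR. Resistance and the presence of the drug therefore cannot be told apart, and H1975 OR is a single derivative, so that the p-values rest on the spread between libraries of 2 cell populations and not between resistant lines.

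A receptor tyrosine kinase binds its ligand outside the cell and phosphorylates itself and adaptor proteins inside it, which feeds the ERK and AKT pathways. MET binds hepatocyte growth factor (HGF), and its relative MST1R, also called RON, binds the macrophage-stimulating protein encoded by MST1. AXL, TYRO3 and MERTK form the TAM family, whose ligands are GAS6 and protein S (PROS1). PDGFRB is a receptor of platelet-derived growth factors, and DDR1 and DDR2 are receptors for collagen. PDGFA and PDGFC encode chains of platelet-derived growth factors, and whether either acts through PDGFRB was not measured here. Amplification of MET and activity of AXL are known routes of resistance to EGFR inhibitors in lung cancer.

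In resistant cells the mRNA of the scatter factor receptors MET and MST1R fell, and that of AXL and of its ligand GAS6 rose. PDGFRB and DDR2, both under 0.2 FPKM in every parental library, reached 3.94 and 1.59 FPKM on average. PDGFC rose and PDGFA fell. DDR1 fell by 0.33 on the log2 scale, and TYRO3 moved least. FPKM, the deposited unit, is a fragment count normalised by transcript length and by the mapped total, and differences are resistant minus parental on log2(FPKM + 1). By limma with Benjamini-Hochberg adjustment over 12107 tested genes, each of the 10 was called at an FDR of 0.05, with 5 higher and 5 lower in resistant cells. Of all tested genes 78.0% were called, 39.9% higher and 38.1% lower, and the count of 10 is to be read against these shares. The groups did not overlap for 9 of the 10 genes, 5 higher and 4 lower, while 79.8% of all tested genes did not overlap, 40.8% higher and 39.0% lower. The size of the change exceeded 1 on the log2 scale for 5 of the 10, against 19.3% of all tested genes. PDGFRB and DDR2, both among these 5, reached the tested level, a mean of 1 FPKM in either group, only through the resistant libraries. A rise was thus likely for both, and the 10 genes were chosen with earlier results of these data known. The contrast with 19.3% therefore shows no excess. These are bulk RNA values, in which a smaller share of cells expressing a gene and less RNA per cell cannot be told apart.

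**Figure D1:**
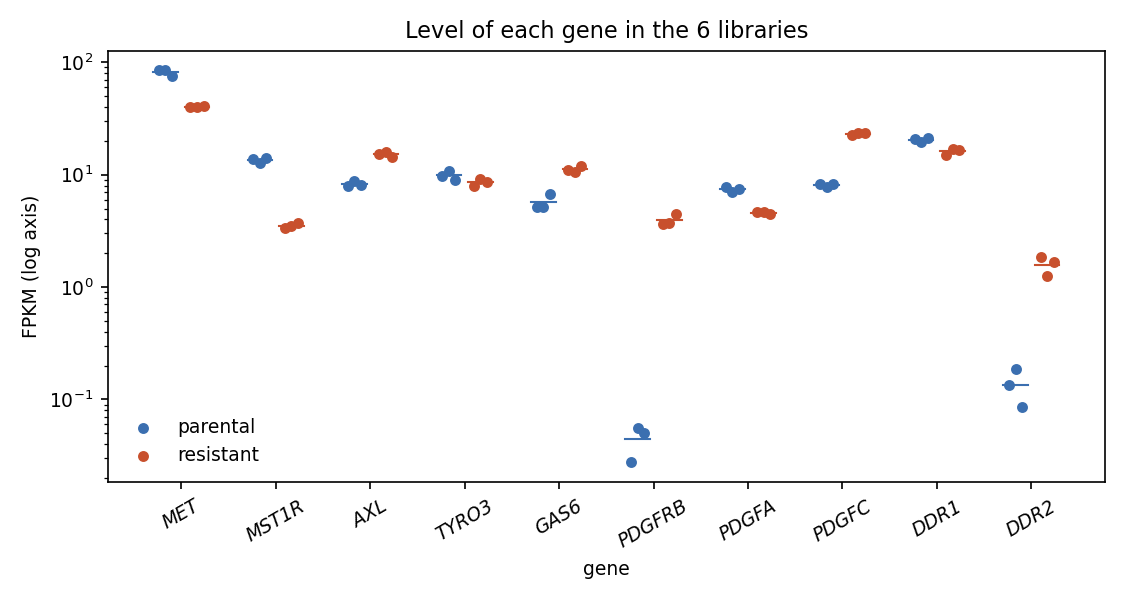
FPKM of each gene (log axis) in the 3 parental (blue) and 3 resistant (red) libraries, with a bar at each group mean. The groups overlap for TYRO3, whose resistant libraries span 7.86 to 9.24 FPKM against 9.02 to 10.8, and for no other of the 10 genes.

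Promoter sequence is shown for MET and MST1R, which fell together, and for AXL and PDGFRB, which rose. Each line gives the 250 bases before a transcript start from RefSeq (GRCh38.p14), written 5′ to 3′ along the gene. Capitals mark a match to one of 3 motifs searched on both strands: CACCTG, the E-box bound by ZEB and SNAI repressors; TGANTCA, the AP-1 site; and GGAATG, the TEAD site.
MET, chr7:116671946-116672195, forward strand: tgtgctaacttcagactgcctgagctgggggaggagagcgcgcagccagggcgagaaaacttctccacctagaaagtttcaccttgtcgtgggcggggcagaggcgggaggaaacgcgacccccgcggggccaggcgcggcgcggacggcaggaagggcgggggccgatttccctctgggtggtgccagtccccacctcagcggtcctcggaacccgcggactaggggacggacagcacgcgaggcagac
MST1R, chr3:49903874-49904123, reverse strand: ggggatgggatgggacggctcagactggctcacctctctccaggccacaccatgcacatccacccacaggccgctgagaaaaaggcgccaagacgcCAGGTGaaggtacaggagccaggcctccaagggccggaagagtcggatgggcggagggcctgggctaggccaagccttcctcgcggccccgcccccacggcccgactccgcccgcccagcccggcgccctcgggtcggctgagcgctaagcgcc
AXL, chr19:41218973-41219222, forward strand: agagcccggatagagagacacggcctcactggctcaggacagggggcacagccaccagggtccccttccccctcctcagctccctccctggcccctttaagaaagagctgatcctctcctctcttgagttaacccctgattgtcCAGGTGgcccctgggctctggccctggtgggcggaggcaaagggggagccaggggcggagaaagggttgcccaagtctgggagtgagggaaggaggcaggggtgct
PDGFRB, chr5:150155846-150156095, reverse strand: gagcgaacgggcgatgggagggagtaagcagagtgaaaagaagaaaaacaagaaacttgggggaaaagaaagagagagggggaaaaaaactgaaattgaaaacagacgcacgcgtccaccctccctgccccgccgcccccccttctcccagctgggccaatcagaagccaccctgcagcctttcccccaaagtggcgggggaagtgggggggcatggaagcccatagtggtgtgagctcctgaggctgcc

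In windows that also held the 50 bases after the start, CACCTG was present in 20.6% of all 35116 promoter windows, TGANTCA in 7.71% and GGAATG in 14.0%. Windows were given for 9 of the 10 genes, PDGFC being the exception. The E-box was found in 10 of the 23 windows of these genes and for 5 of the 9: MST1R, DDR1 and PDGFA, which fell, and AXL and GAS6, which rose. In MST1R it lay 154 bases before the start, with a second match at base 25 after it, and in AXL 106 bases before the start. No match to any of the 3 motifs lay in the windows of MET and PDGFRB. The TEAD site was found in the other window of AXL and in 1 window of DDR1, and the AP-1 site in 1 window each of DDR1, DDR2 and TYRO3. DDR1 had 8 windows, so that a match there was more likely than in a gene with 1. Windows of a gene can overlap, and the same E-box of DDR1 was counted in more than 1 window. The 10 windows with an E-box therefore do not all hold separate sites.

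MET (7:116312444-116438440, GRCh37) had parental values of 84.8, 84.7 and 76.1 FPKM and resistant values of 40.0, 39.8 and 41.0 FPKM, in the order of replicates 1 to 3 as throughout. Every resistant library was far below every parental one, and the means of 81.9 ± 5.01 and 40.2 ± 0.624 FPKM (SD, n = 3 per group) differed 2.03-fold. The difference was -1.01 ± 0.06 (SE; limma adjusted p = 1.5e-08). MET had the highest mean FPKM of 58 receptor tyrosine kinases in both groups.

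MST1R (3:49924435-49941299) had parental values of 13.9, 12.8 and 14.0 FPKM and resistant values of 3.32, 3.49 and 3.75 FPKM. The groups were widely separated, with means 3.86-fold apart (13.6 ± 0.701 and 3.52 ± 0.216 FPKM) and a difference of -1.69 ± 0.07 (SE; limma adjusted p = 2.2e-10). Among the 58 receptor tyrosine kinases it moved from rank 10 in parental to rank 18 in resistant cells. The ratio of MET to MST1R within a library was 5.42 to 6.63 in parental and 10.9 to 12.1 in resistant cells.

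The ligands of both receptors were scarce. HGF was listed at 0 in all parental libraries and at 0, 0.00849 and 0.0261 FPKM in the resistant ones. MST1 had parental values of 0.463, 0.662 and 0.654 FPKM and resistant values of 1.09, 1.18 and 2.30 FPKM, a rise of 0.63 ± 0.17 (SE; limma adjusted p = 0.010), and reached the tested level only through the resistant group. It has near-identical copies elsewhere in the genome, and how the counting treated shared reads is not given in the sources used here. Both ligands are secreted as inactive precursors and cut by serine proteases. Of 8 tested genes for these proteases and their inhibitors, 1 rose and 7 fell, each by more than 1 on the log2 scale. Their median was -2.26 against 0.01 over all tested genes, and 4 of the 8 reached the tested level in 1 group only. The inhibitor genes SPINT2 (162 ± 9.83 to 1.80 ± 0.232 FPKM) and SPINT1 (41.8 ± 1.55 to 0.0272 ± 0.0256 FPKM) fell most. Protease genes were among the 7 as well, ST14 falling from 35.1 ± 0.787 to 0.126 ± 0.0121 FPKM and PLAU from 107 ± 11.3 to 20.8 ± 1.62 FPKM. Cleavage of the precursors was not measured. PLAT, tissue plasminogen activator, was the member that rose, from 4.61 ± 0.714 to 46.7 ± 6.05 FPKM.

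AXL (19:41725108-41767671) had parental values of 7.87, 8.75 and 8.04 FPKM and resistant values of 15.1, 15.9 and 14.4 FPKM. The groups did not overlap, and the mean rose 1.84-fold, from 8.22 ± 0.466 to 15.1 ± 0.731 FPKM (difference 0.81 ± 0.06 SE; limma adjusted p = 1.5e-07). Its rank among receptor tyrosine kinases went from 15 to 8.

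Its ligand GAS6 (13:114523522-114567046), a vitamin K-dependent protein, had parental values of 5.18, 5.20 and 6.77 FPKM and resistant values of 10.9, 10.6 and 11.9 FPKM. All resistant libraries lay above the highest parental one, with a 1.95-fold rise of the mean and a difference of 0.86 ± 0.09 (SE; limma adjusted p = 2.5e-06). The antisense gene GAS6-AS1 overlaps it and was at 5.04 and 5.52 FPKM on average in parental and resistant cells. Whether strand was used in counting is not given in the sources used here, so reads of both genes may not be separated. The ratio of GAS6 to AXL within a library was 0.595 to 0.842 in parental and 0.669 to 0.825 in resistant libraries, so that the groups overlapped. With 1 added to both values the log2 ratio differed by 0.05 (exact two-sided permutation test over 6 libraries, p = 0.80), and by 0.087 with 0.1 added. The exact permutation test of 3 against 3 libraries cannot go below p = 0.10 and does not show that both genes rose alike.

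TYRO3 (15:41849873-41871536) had parental values of 9.82, 10.8 and 9.02 FPKM and resistant values of 7.86, 9.24 and 8.53 FPKM. Resistant replicate 2 lay above parental replicate 3, so the groups overlapped. The difference of -0.19 ± 0.08 (SE; 95% interval -0.36 to -0.02) passed narrowly (limma adjusted p = 0.042). The call was lost without parental replicate 1 (adjusted p = 0.080) or 2 (0.17), without resistant replicate 1 (0.15) or 3 (0.075), with TPM, without a filter and without trend and robust moderation. A pseudogene copy of TYRO3 exists, and reads shared with it were not separable here. The ratio of AXL to TYRO3 went from below 1 in parental libraries (0.801 to 0.891) to above 1 in resistant ones (1.69 to 1.93).

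MERTK, the remaining TAM receptor, had parental values of 0.775, 0.737 and 0.507 FPKM and resistant values of 0.0365, 0.114 and 0.118 FPKM, below the tested level in both. PROS1 was the more abundant TAM ligand in each library, with 19.7 ± 1.37 and 23.0 ± 2.13 FPKM, and rose by 0.21 ± 0.08 (SE; limma adjusted p = 0.025). Its groups overlapped, with resistant replicate 2 at 20.6 FPKM and parental replicate 3 at 20.9 FPKM. GAS6 and protein S need carboxylation by a vitamin K-dependent enzyme to bind membranes. Of 4 genes listed for the vitamin K cycle and carboxylation, not all of them enzymes, 3 rose and 1 fell, all being tested. The 3 include CALU, which encodes calumenin (120 ± 2.48 to 177 ± 7.42 FPKM). VKORC1, which recycles vitamin K, rose from 41.6 ± 2.11 to 90.1 ± 6.37 FPKM and the carboxylase gene GGCX from 9.20 ± 1.65 to 14.3 ± 2.02 FPKM, while VKORC1L1 fell from 18.5 ± 1.11 to 13.7 ± 0.358 FPKM. TAM receptors, MET and the DDRs can be cut from the cell surface. Of 9 tested genes of sheddases, gamma-secretase and their tissue inhibitors 8 rose and 0 fell, with a median of 0.40. Of all tested genes 39.9% were called higher. The 8 include the inhibitor genes TIMP1 and TIMP2 (differences of 0.21 and 0.40), and shedding was not measured. The membrane metalloproteinase gene MMP14 rose most, from 2.68 ± 0.531 to 81.8 ± 6.44 FPKM, followed by the gamma-secretase gene NCSTN (25.6 ± 1.30 to 38.2 ± 2.31 FPKM).

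PDGFRB (5:149493400-149535435) had parental values of 0.0275, 0.0557 and 0.0498 FPKM and resistant values of 3.63, 3.73 and 4.45 FPKM. The difference was 2.24 ± 0.08 (SE; limma adjusted p = 7.4e-11), the largest of the 10 genes and reached 4.80 with a pseudocount of 0.1. The other receptor, PDGFRA, was at 0.0246 FPKM or less in each parental library and at 0.0156, 0.0544 and 0 in the resistant ones. PDGFRB in resistant cells was thus present with almost no PDGFRA mRNA.

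PDGFC (4:157681606-157892546) had parental values of 8.18, 7.83 and 8.23 FPKM and resistant values of 22.3, 23.4 and 23.7 FPKM, a 2.86-fold rise of the mean (difference 1.41 ± 0.06 SE; limma adjusted p = 3.2e-10). PDGFA (7:536895-559933) went the other way, from 7.75, 6.99 and 7.45 FPKM to 4.61, 4.65 and 4.48 FPKM (difference -0.59 ± 0.06 SE; limma adjusted p = 2.9e-06). Neither gene's groups overlapped. The ratio of PDGFA to PDGFC, 0.893 to 0.948 in parental libraries, was 0.189 to 0.206 in resistant ones. PDGFB fell from 2.34 ± 0.206 to 1.30 ± 0.228 FPKM (limma adjusted p = 9.4e-05). PDGFD had parental values of 0.0978, 0.104 and 0.142 FPKM and was listed at 0, 0.00762 and 0 in resistant cells. PDGFRL, which encodes a PDGF receptor-like protein, rose from 0.798 ± 0.0908 to 1.50 ± 0.186 FPKM (limma adjusted p = 0.00013), and it too reached the tested level only through the resistant group. PDGF precursors are cut by proprotein convertases, and PDGF-C and PDGF-D by extracellular proteases. Of 5 tested genes of these proteases 3 rose, PLAT and the convertase gene PCSK7 (10.6 ± 0.532 to 13.9 ± 0.748 FPKM) among them, and 2 fell: PLAU, urokinase (107 ± 11.3 to 20.8 ± 1.62 FPKM), and PCSK5 (2.31 ± 0.108 to 0.0171 ± 0.00834 FPKM).

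DDR1 (6:30844198-30867933) had parental values of 20.8, 19.6 and 21.2 FPKM and resistant values of 14.9, 16.8 and 16.6 FPKM. The groups did not overlap, though the change was modest, with a difference of -0.33 ± 0.07 (SE; limma adjusted p = 0.00049). DDR2 (1:162601163-162757190) had parental values of 0.134, 0.186 and 0.0855 FPKM and resistant values of 1.84, 1.26 and 1.66 FPKM (difference 1.18 ± 0.09 SE; limma adjusted p = 8.3e-08). Its difference reached 2.85 with a pseudocount of 0.1. DDR1 still exceeded DDR2 in each library, by a factor of 105 to 248 in parental and of 8.11 to 13.3 in resistant cells. Among 13 collagen chain genes whose products bind these receptors, 4 were tested and all 4 rose, with a median of 1.57. Of all tested genes 39.9% were called higher. COL4A5 and COL4A6, both counted in the 4 and in the median, reached the tested level only through the resistant group. Untested chains went both ways: COL4A1 was at 0.190 FPKM in parental and 0.00371 FPKM in resistant cells, and COL5A2 at 0.289 and 0.821 FPKM. COL4A5, a basement membrane chain, rose from 0.0181 ± 0.0196 to 5.39 ± 0.613 FPKM and COL1A1 from 2.45 ± 0.249 to 15.8 ± 1.89 FPKM.

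**Figure D2:**
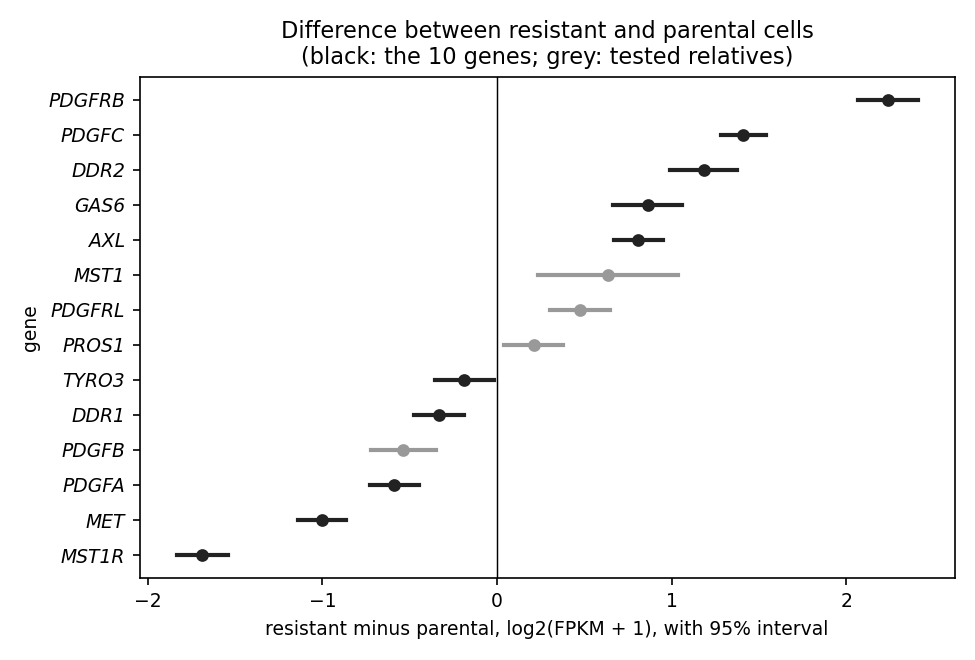
Difference between resistant and parental cells on log2(FPKM + 1) with its 95% interval from limma, for the 10 genes (black) and the tested ligands and receptors of the same families (grey). PDGFRB lies highest at 2.24 and MST1R lowest at -1.69, and the interval of TYRO3 ends at -0.02.

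The make-up of the receptor mRNA shifted from MET toward AXL. The 7 receptors summed to 134 ± 4.95 FPKM in parental and 89.1 ± 2.05 FPKM in resistant cells. Of this sum MET took 59.2% to 61.9% in parental and 44.1% to 46.1% in resistant libraries, and AXL 5.73% to 6.39% and 16.0% to 17.6%. MST1R went from 10.1% ± 0.795 to 3.95% ± 0.173, and PDGFRB from 0.0332% ± 0.0114 to 4.41% ± 0.439. DDR1 held 15.3% ± 1.10 and 18.1% ± 0.759, its own level having fallen by less than the sum. The ratio of MET to AXL was 10.8, 9.68 and 9.47 in the parental and 2.64, 2.50 and 2.84 in the resistant libraries. Such a ratio of FPKM does not depend on how a library was scaled. Of 6 ratios compared, all except that of GAS6 to AXL separated the groups completely, with p = 0.10 each by the exact permutation test, the smallest value that 3 against 3 libraries allow, and 0.12 after Benjamini-Hochberg adjustment over the 6. The tests were run on log2 ratios with 1 FPKM added to each gene.

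**Figure D3:**
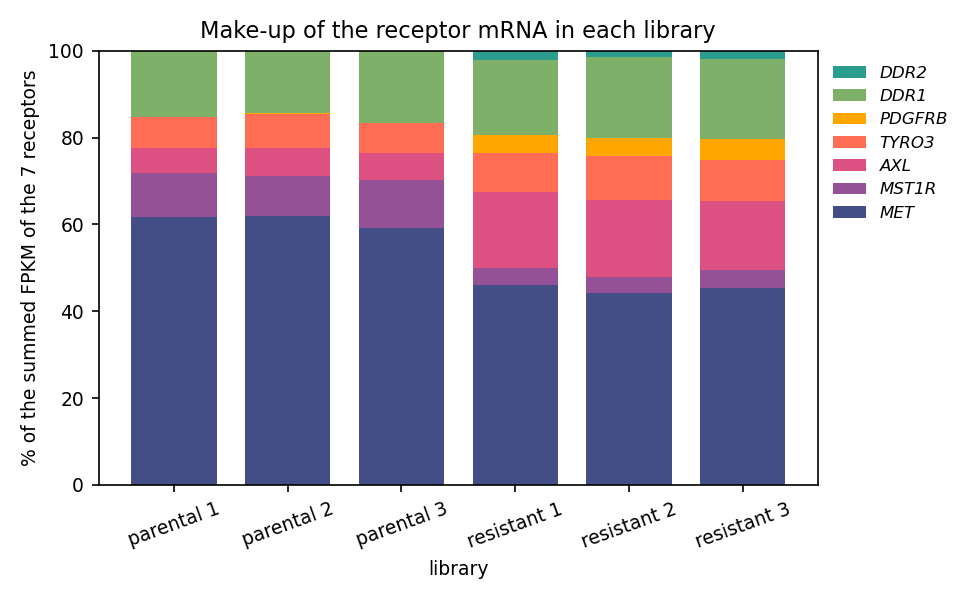
Share of each receptor in the summed FPKM of the 7 receptors, as stacked bars from 0 to 100% for each of the 6 libraries. MET takes about 60% of each parental bar and 45% of each resistant bar, and the AXL segment widens from 6.13% to 17.0% on average.

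Within the parental group, the order of the 10 genes by FPKM was MET, DDR1, MST1R, TYRO3, AXL, PDGFC, PDGFA, GAS6, DDR2 and PDGFRB, and only AXL and PDGFC overlapped as neighbours. Within the resistant group the order was MET, PDGFC, DDR1, AXL, GAS6, TYRO3, PDGFA, PDGFRB, MST1R and DDR2, in which DDR1 overlapped AXL and PDGFRB overlapped MST1R. This order depends on the length by which each gene was scaled. The library files also give each gene's mean coverage, and coverage divided by FPKM has a highest value in each library that 90.3% of 585 genes with 1 transcript in GENCODE v29 reach to within 1%. Genes with 5 or more transcripts had a median of 38.6% of that value. The ratio stood at 4.68% to 4.91% on average for PDGFC and at 77.8% and 78.3% for MST1R. A level taken from coverage divided by that highest ratio, here called the coverage level, ordered the genes differently in both groups. PDGFC came ninth in resistant cells (1.08 ± 0.0232) and AXL second (7.34 ± 0.360), above DDR1 (4.43 ± 0.329) with no overlap. PDGFA exceeded PDGFC by 7.87-fold in parental and by 2.06-fold in resistant cells on that scale, where FPKM puts PDGFC higher. Directions between the groups were alike on both scales, with ratios of resistant to parental means of 2.73 (coverage level) and 2.86 (FPKM) for PDGFC, 1.85 and 1.84 for AXL, 2.18 and 1.95 for GAS6, and 12.5 and 11.7 for DDR2. The coverage-to-FPKM ratio itself did not overlap between groups for 5 of the 10 genes. The share of all genes for which it does not overlap was not computed, so this count is not a trait of the 10. MET (42.7% to 43.5% of the highest in parental and 41.6% to 42.6% in resistant libraries) and DDR1 (26.9% ± 0.242 and 27.5% ± 0.298) were set apart by a narrow margin. The ratio was 31.1% ± 1.21 and 34.9% ± 0.199 of the highest for GAS6, 42.1% ± 0.582 and 48.6% ± 2.03 for PDGFA, and 66.7% ± 0.00817 and 61.6% ± 1.05 for PDGFRB. Parental PDGFRB was at 0.0557 FPKM or less in each library, so its parental ratio and the small SD come from a level near 0. Shares of the receptor sum moved as well. On the coverage level MST1R held 17.7% ± 1.14 and 7.21% ± 0.230, DDR1 9.24% ± 0.532 and 11.6% ± 0.666, MET 58.8% ± 1.16 and 44.3% ± 1.33, and AXL 6.63% ± 0.335 and 19.2% ± 1.01. MET then ranked 2 of 58 receptor tyrosine kinases in both groups, AXL 12 and 4, and MST1R 4 and 11. The fall of PDGFA was 1.62-fold by FPKM and 1.40-fold by coverage level.

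**Figure D4:**
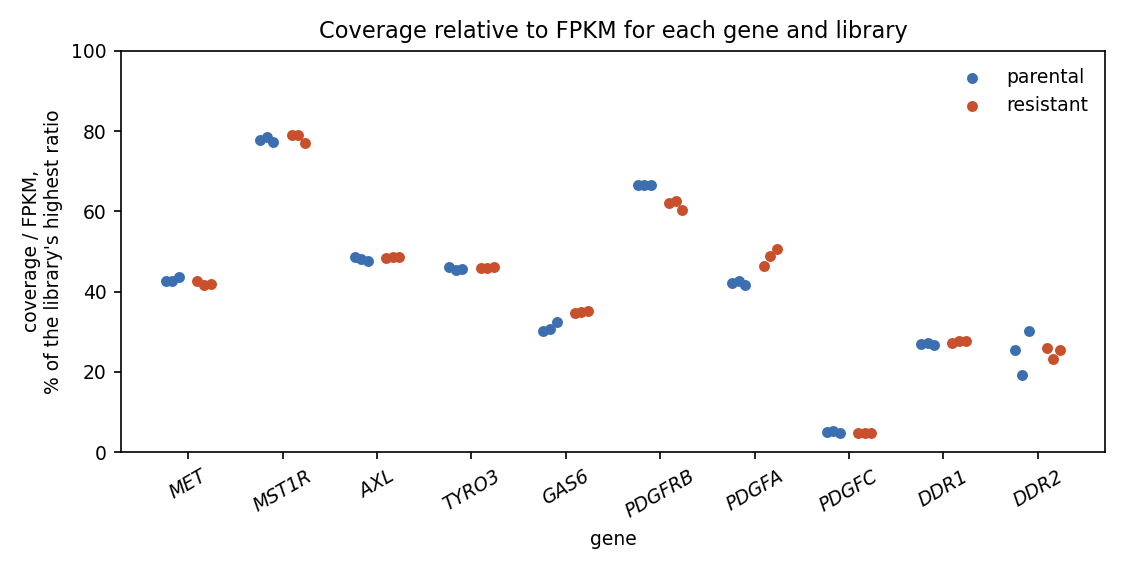
Deposited mean coverage divided by FPKM, as a percentage of the highest such ratio of the library, for each gene in the 3 parental (blue) and 3 resistant (red) libraries. PDGFC lies below 6% in all libraries, while the groups are set visibly apart for GAS6, PDGFA and PDGFRB and narrowly for MET and DDR1.

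Genes close to MET were lower in resistant cells as well. Within 1 Mb of the start of MET, 5 other genes were tested and all 5 fell, with a median of -1.04, close to the -1.01 of MET itself. CAV2 (7:115927434-116148595; 112 ± 3.90 to 19.2 ± 1.28 FPKM) and CAV1 (7:116164839-116201233; 279 ± 6.67 to 126 ± 8.47 FPKM), which encode caveolins, changed most. On chromosome 7 as a whole 397 of 567 other tested genes fell and 97 rose (median -0.55). PDGFA lies on the same chromosome, and 12 of its 14 tested neighbours fell, with a median of -0.53 beside its own -0.59. The part of the chromosome in the fall of MET and PDGFA was not tested.

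MST1R fell where 24 of 49 neighbours rose and 14 fell (median 0.22), and DDR1, which lies in the major histocompatibility complex region, fell where 47 of 55 neighbours rose and 1 fell (median 0.62). Of 13 neighbours of GAS6 5 rose and 4 fell (median 0.09), while on chromosome 13 as a whole 125 of 187 tested genes fell (median -0.43). DDR2 rose among 13 neighbours of which 9 fell and 2 rose. AXL rose with 6 of 32 neighbours higher and 15 lower, the most changed being the B cell receptor gene CD79A (4.45 ± 0.717 to 0.0361 ± 0.0439 FPKM) and BCKDHA, of branched-chain amino acid breakdown (23.9 ± 2.60 to 9.05 ± 0.697 FPKM). Of 22 neighbours of PDGFRB 10 rose and 8 fell. CSF1R, the receptor gene directly beside PDGFRB (5:149432854-149492935), fell from 4.54 ± 0.196 to 0.373 ± 0.0290 FPKM, and CD74, the invariant chain (5:149781200-149792492), from 43.5 ± 3.86 to 6.98 ± 0.897 FPKM. Of 32 neighbours of TYRO3, 13 rose and 7 fell. PDGFC had no tested gene within 1 Mb. These counts are to be read against all tested genes, of which 39.9% were called higher and 38.1% lower. Counts near these shares, as for PDGFRB, do not set a neighbourhood apart.

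**Figure D5:**
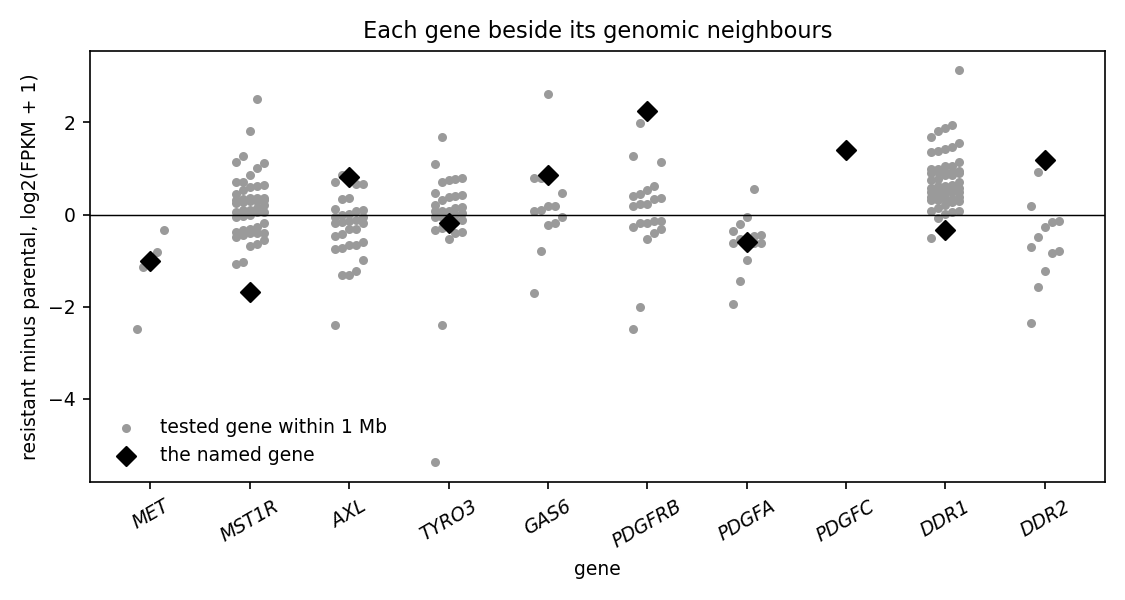
Difference between resistant and parental cells on log2(FPKM + 1) for each of the 10 genes (black diamonds) and for the tested genes that start within 1 Mb (grey points). All 5 neighbours of MET lie below 0, whereas DDR1 lies below nearly all of its 55 neighbours and PDGFC has none.

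Other receptor tyrosine kinases fell more often than they rose. Of 51 listed outside the 7 receptors, 21 were tested, 5 rose and 16 fell, with a median of -0.66, and 8 of the 21 reached the tested level in 1 group only. ERBB3, the partner of EGFR (18.3 ± 2.39 to 0.984 ± 0.324 FPKM), and the ephrin receptor gene EPHA1 (12.2 ± 0.343 to 0.535 ± 0.0553 FPKM) fell most. FGFR1 (2.82 ± 0.319 to 8.09 ± 0.115 FPKM) and the insulin receptor gene INSR (2.64 ± 0.261 to 6.98 ± 0.531 FPKM) rose most. As a share of the summed FPKM of all 58, MET went from 20.6% ± 0.595 to 16.2% ± 0.562 and AXL from 2.07% ± 0.112 to 6.11% ± 0.375.

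Partners and signalling genes shared by the receptors were mixed. Of 13 co-receptors and membrane partners 4 rose and 9 fell, with a median of -0.43. The integrin subunit gene ITGB1 (116 ± 3.57 to 712 ± 21.8 FPKM) and LRP1, an endocytic receptor that associates with PDGFRB (4.57 ± 0.698 to 25.3 ± 3.55 FPKM), rose most. ITGB4 (19.5 ± 3.12 to 2.25 ± 0.764 FPKM) and ITGA6 (44.3 ± 1.19 to 10.7 ± 0.353 FPKM), which pair as the laminin receptor that associates with MET, fell most. Of 25 adaptors and effectors 12 rose, 7 fell and 6 did not pass, with a median of 0.13. Among the 7 that fell, the adaptor gene NCK2 went from 11.7 ± 0.630 to 4.30 ± 0.200 FPKM and the exchange factor gene VAV2 from 19.7 ± 0.854 to 9.76 ± 0.0104 FPKM. None of the 12 that rose is named here, so these examples do not stand for the list. Of 16 tested phosphatases, ubiquitin ligases and inhibitors of receptors 9 rose and 5 fell, with a median of 0.22. LRIG1, a transmembrane inhibitor of EGFR and MET, rose from 0.237 ± 0.0557 to 27.6 ± 0.757 FPKM and DUSP4, an ERK phosphatase, from 2.34 ± 0.142 to 7.19 ± 0.468 FPKM, whereas PTPN2, a phosphatase that acts on MET, fell from 13.1 ± 0.671 to 5.33 ± 0.447 FPKM and PTPN1 from 34.3 ± 0.282 to 24.3 ± 0.758 FPKM. Each gene named in these lists passed limma's FDR of 0.05.

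The libraries held an estimated 9.72 to 14.7 gigabases of mapped sequence. All 13 epithelial markers fell, by unequal amounts: CDH1 was at 64.4 to 71.4 FPKM in parental and at 0.00965 to 0.0354 FPKM in resistant libraries, whereas KRT8 kept 384 of 508 FPKM and KRT18 274 of 431 FPKM on average. Of the lung markers, NKX2-1 was at 23.6 to 28.7 FPKM in parental libraries and listed at 0 in each resistant one, while the surfactant genes SFTPB, SFTPC, SFTPA1 and SFTPA2 averaged 0.0207 FPKM or less already in parental cells. Of 10 tested mesenchymal markers 6 rose and 4 fell. PDGFRB, DDR2 and PDGFC are also expressed by fibroblasts and pericytes. The 10 fibroblast markers summed to 4.92 to 5.45 FPKM in parental and 16.5 to 20.2 FPKM in resistant libraries. Of the 2 tested, COL1A1 rose and FBLN1 fell, while of the defining markers DCN was listed at 0 in every library, LUM was at 0.0285 FPKM or less and COL3A1 at 0.349 FPKM or less. The 10 pericyte and smooth muscle markers summed to 18.6 to 22.5 and 59.5 to 70.5 FPKM, with 5 of 7 tested higher and 1 lower. MCAM, the largest part of the resistant sum, rose from 8.69 ± 0.903 to 43.8 ± 3.84 FPKM, and NOTCH3 fell from 6.47 ± 0.762 to 0.371 ± 0.0927 FPKM. Of the defining markers, DES reached 4.99 to 7.77 FPKM and CSPG4 1.53 to 2.05 FPKM in resistant libraries. RGS5 was at 2.69 ± 0.503 FPKM in parental and 3.20 ± 0.480 FPKM in resistant cells and did not pass (limma adjusted p = 0.15). The part of such markers in the rise of PDGFRB was not tested. The leukocyte marker PTPRC stayed at 0.0404 FPKM or less and the endothelial marker VWF at 0.0300 FPKM or less. The 9 leukocyte markers summed to 28.8 to 32.2 FPKM in parental and 70.8 to 80.7 FPKM in resistant libraries, and of the 3 tested CD14 (2.67 ± 0.646 to 26.8 ± 3.05 FPKM) and CD68 (22.6 ± 1.74 to 46.9 ± 3.36 FPKM) rose and CSF1R fell. Of 2 tested endothelial markers 1 rose and 1 fell, and of 4 tested lung adenocarcinoma markers 3 fell and 0 rose.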

How the data were processed

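RNA of 3 parental and 3 resistant H1975 cultures was sequenced after an mRNA library kit, per the labels' protocols. The submitters' processing notes give GRCh37 as the build and list DESeq without a version or its use. Which aligner and quantification tool were run, and whether strand was used, is not given in the sources used here. In a series table the authors deposited FPKM, and per the file headers the library files hold coverage, FPKM and TPM. Between 1 and 4 genes per library differed between the tables by more than 0.00001 FPKM. No read counts were used and depth in reads is unknown. Mapped gigabases were estimated as the highest ratio of deposited coverage to FPKM.

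The 12107 genes averaging 1 FPKM or more in the parental or the resistant libraries entered limma 3.58.1 (R 4.3.3). The model held the group alone, on log2(FPKM + 1), with trend and robust moderation and two-sided tests at an FDR of 0.05. The log2(FPKM + 1) scale understates changes of low genes. The script was tested on simulated data. The 10 genes, the 17 other gene lists and the naming rule were chosen with earlier results of these data known. The rule names all 10 genes, every other ligand or receptor of their families, and at most 2 rises and 2 falls per list and, for MET, AXL and PDGFRB, the 2 most changed neighbours, and a gene it would name is not reported here. Some genes outside the rule, such as ST14 and CALU, are named to show the make-up of a list. Of the list symbols 1 endothelial marker was not matched. Alternatives were pseudocounts of 0.1 and 0.5, other filters, TPM, median-of-ratios scaling, limma without trend and robust moderation, a replicate block, and leaving out each library. The coverage level was added after the data were seen. Promoters are RefSeq's (GRCh38.p14), whereas gene coordinates are GRCh37.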

Additional observations from a re-analysis of the deposited data

How the results depend on the processing

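Of 148 recomputed changes of the 10 genes 141 kept their direction and their side of the threshold, and the other 7 were those of TYRO3, which kept its direction but not its call in 7 of 15 alternatives (adjusted p from 0.017 to 0.17). It was lost without a filter (0.092), with TPM (0.065), without trend and robust moderation (0.054) and without the libraries named above. Testing only genes at 1 FPKM in both groups left 3 genes higher, since PDGFRB and DDR2 were then not tested. The difference in the log2 ratio of GAS6 to AXL ranged from -0.041 to 0.18 as each library was left out, and turned negative without parental replicate 2 (-0.041) or resistant replicate 3 (-0.023). With a replicate block 9422 genes passed against 9448 without it, and the calls of the 10 genes were 5 higher and 5 lower in both. Deviations of libraries with the same number correlated at -0.14, 0.08 and 0.10, so the numbers were not taken to pair the cultures. With the coverage level, chosen after seeing the data, the change on the log2(level + 1) scale was 0.44 for DDR2, 0.58 for PDGFC and -0.35 for PDGFA. These levels are lower than FPKM, so that the added 1 weighs more, and for PDGFA the fold without it was smaller too. Parental values of PDGFRB and DDR2 are near 0, and no counting interval can be given for them.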

Other observations

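Likeness to a gene over the 6 libraries was ranked only among genes with a plain symbol. Clone-based names and names with lower-case letters were left out. Of those ranked, the genes with a level pattern most like that of MET were SEMA3E, HMMR and SCD (Pearson r of 0.9998 each on log2(FPKM + 1)). SEMA3E, a semaphorin gene, went from 1.38 ± 0.163 to 0.0457 ± 0.0189 FPKM, and HMMR, a hyaluronan receptor gene, from 31.5 ± 1.81 to 15.7 ± 0.0705 FPKM. SCD, a fatty acid desaturase gene, went from 216 ± 21.2 to 70.2 ± 3.12 FPKM. For AXL they were the transcription factor gene FOXC1 (2.51 ± 0.303 to 7.01 ± 0.461 FPKM), DTWD1 and TMEM109, and for PDGFRB they were DNAJC1 (4.87 ± 0.112 to 16.6 ± 1.08 FPKM), COL4A5 and DIXDC1. Such values come easily with 6 libraries in 2 groups: of 12106 other tested genes, 1240 had an r above 0.99 with MET, 531 with AXL and 1453 with PDGFRB.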
